A study of Arabidopsis thaliana with 9 samples.

Results

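The genes described here are the 31 nuclear loci of Arabidopsis thaliana that encode photosystem I subunits, the photosystem I antenna and the soluble or nuclear-encoded carriers around it. They were chosen by locus from a list of names and roles, not by their values, and are 31 of the 34262 loci in the deposited tables. They have 51 of the 55442 annotated transcripts there. Wild-type Col-0 shoots were sampled under 3 iron conditions, with 3 biological replicates each and 9 samples in all. All plants were first grown with iron for 14 days and carried no transgene or mutation. For the -Fe group iron was then left out of the medium for 3 days and for a last period of 24 h. For the Fe resupply group it was left out for 3 days only and given back in the last 24 h. The +Fe group was transferred at the same times but always had iron.

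Photosystem I takes electrons from plastocyanin in the thylakoid lumen and passes them, with the energy of light, to ferredoxin in the stroma. Ferredoxin-NADP reductase then uses them to make NADPH, or they return to the plastoquinone pool in cyclic electron flow. The complex is among the richest in iron in a leaf, since it holds iron-sulfur clusters, and the Rieske protein of the cytochrome b6f complex and the ferredoxins hold such clusters as well. Plastocyanin carries copper instead. The clusters of photosystem I itself sit on plastid-encoded subunits, so the nuclear subunits listed here carry none.

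The values are levels in CPM, that is counts scaled so that libraries of different size can be compared, for each condition, solved from the mean level that the authors deposited for each pair of conditions and summed over the transcripts of a gene. Each condition has 1 pooled value, so the spread between its replicates is not in these values, no difference was tested, and a single library could set a pooled value. Differences are log2 ratios of the level plus 1 CPM, set so that the median of all compared genes is 0. Genes with a mean of at least 10 CPM were compared, which were 11267 loci and all 31 of the listed genes. A gene is called higher or lower below where its log2 ratio reached 0.5 in size. The deposited tables give no depth per sample. Their lowest values fall on 12 steps of 0.0658 to 0.0844 CPM in a table, although the labels give 6 samples to a pair of conditions, and why there are more steps than samples was not tested. Read as 1 independent count each, the steps put about 67.8 counts behind 10 CPM in one condition. The intervals given below are 95% intervals from such counts, and they cover counting error only. CPM were not divided by transcript length, so levels are not compared between genes, and a share of a pair or of a gene is read only for its change between conditions.

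The labels were checked on other genes first, which were chosen with earlier results of these data known. Of 10 iron status markers, 6 were higher and 4 lower in -Fe than in +Fe, where 5.01% of all compared genes were higher and 5.74% lower. FER1, a ferritin that stores iron, had 11.6 CPM in -Fe, 160.6 CPM in Fe resupply and 107.7 CPM in +Fe. BHLH38, a transcription factor induced by iron deficiency, had 147.8 CPM in -Fe, 6.02 CPM in Fe resupply and 5.12 CPM in +Fe. The 3 shoot markers RBCS1A, CA1 and RCA lay between 2772 and 12462 CPM, and the root markers IRT1, FRO2 and AHA7 reached at most 3.90 CPM in any condition. In bulk shoots, fewer cells of a type and less RNA per cell cannot be told apart.

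In -Fe shoots, 3 of the 31 genes were lower than in +Fe shoots and 0 were higher, where 5.74% of all compared genes were lower and 5.01% were higher. The 3 genes were FD2, PSAF and PSAN, which encode the major leaf ferredoxin and 2 photosystem I subunits on the plastocyanin side. The other 28 genes lay between -0.42 and 0.45 on the log2 scale, with a median of 0.00, and 23 of them were within 0.25 of 0. That group was set apart after the values were seen. The median of all 31 was -0.04, against 0 for all compared genes, whose middle 50% ran between -0.17 and 0.16.

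Between Fe resupply and +Fe shoots, 0 of the 31 genes were higher and 0 lower. Of all compared genes, only 2.72% were higher and 3.77% lower there, so few calls would be looked for among 31 genes. The median was 0.13, and 28 of the 31 genes lay above 0. Abundant genes in general lay on that side, since 159 of the 199 genes with a mean of at least 500 CPM were above 0 with a median of 0.10, and 20 of the 21 listed genes at that level were above 0 with a median of 0.15. In -Fe against Fe resupply, 5 genes were lower and 0 higher, where 6.3% of all compared genes were lower and 5.5% higher. All 5 have a mean of at least 500 CPM, and of the 199 genes at that level 23 were lower and 3 higher there. PSAD2 and LHCA2 joined FD2, PSAF and PSAN there, but the counting intervals of both reach across the limit of 0.5. Without the centring on the median of all genes they were at -0.48 and -0.49, and 3 genes were lower. The 3 comparisons share their samples, so they are not independent of each other. By level, 23 genes were highest in Fe resupply, 6 in -Fe and 2 in +Fe, and 17 were lowest in -Fe, 13 in +Fe and 1 in Fe resupply. No such ranking was made for all compared genes. Some of these ranks, such as those of LHCA6 and FD3, rest on differences within counting error.

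**Figure D1:**
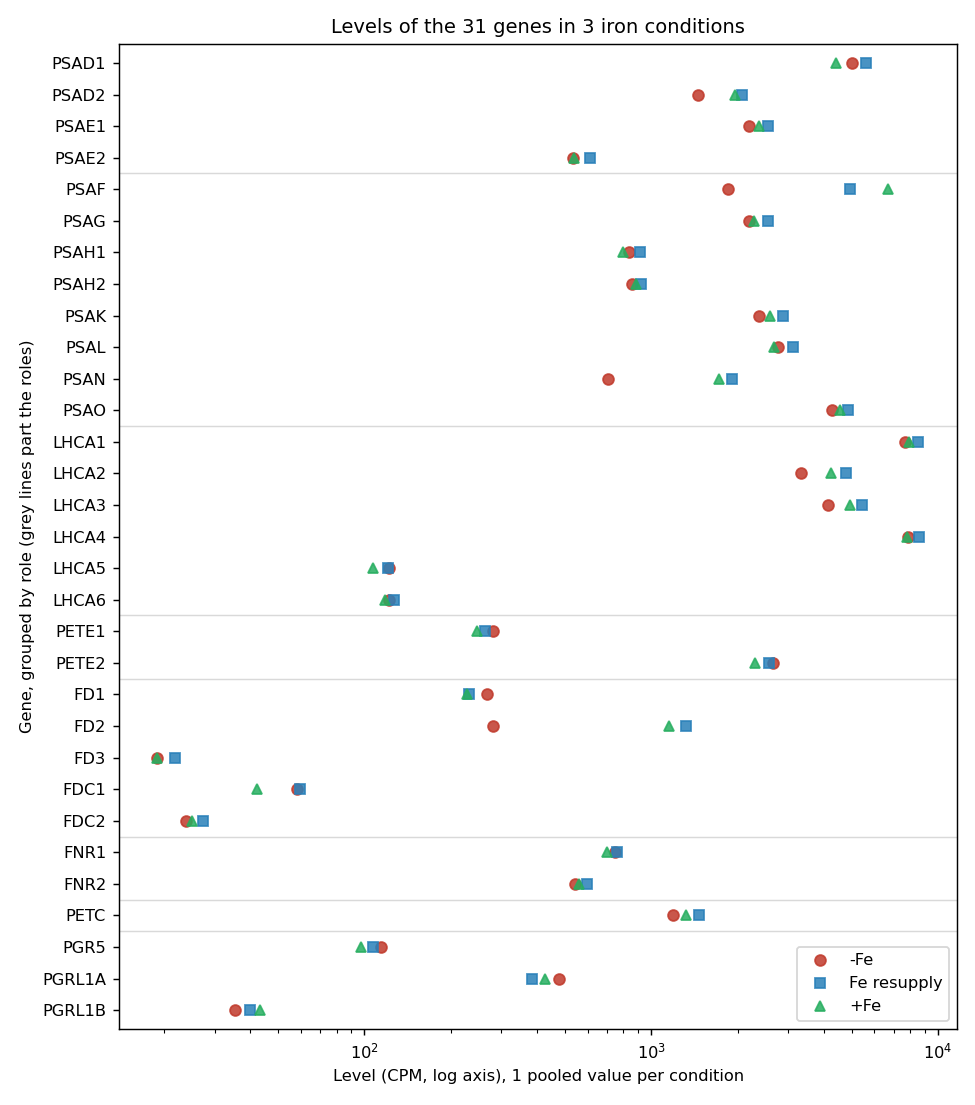
Level of each of the 31 genes in CPM on a log axis, with 1 pooled value for each of -Fe (circles), Fe resupply (squares) and +Fe (triangles), grouped by role. The -Fe values of PSAF (1857 CPM), PSAN (709 CPM) and FD2 (281 CPM) lie far left of their +Fe values (6722, 1724 and 1152 CPM), while most other genes have their 3 values close together.

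FD2 (AT1G60950), which encodes the ferredoxin that carries most electrons in leaves, showed the lowest ratio of the 31 genes. Its level was 281 CPM in -Fe, 1320 CPM in Fe resupply and 1152 CPM in +Fe. The level in -Fe was thus 4.09-fold lower than in +Fe, a log2 ratio of -2.03 (counting interval -2.10 to -1.96), and 26 of the 11267 compared genes had a ratio this low or lower. Fe resupply over +Fe was at 0.20, and -Fe over Fe resupply was at -2.23, where 14 compared genes were as low. FD2 lies on chromosome 1 (TAIR10.1, chr1:22444307-22445291, plus strand) and is a gene of 1 exon.

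PSAF (AT1G31330) encodes the subunit with which plastocyanin docks on the lumenal face of photosystem I. It had 1857 CPM in -Fe, 4922 CPM in Fe resupply and 6722 CPM in +Fe. The -Fe level was 3.62-fold lower than in +Fe, a log2 ratio of -1.86 (counting interval -1.88 to -1.83). Unlike FD2, PSAF lay below +Fe in Fe resupply, at -0.45 (counting half-width 0.02), which was the lowest of the 31 genes in that comparison and short of the 0.5 used for a call. In all, 552 compared genes were as low there. PSAF was at -1.41 in -Fe against Fe resupply. The gene has 2 exons on the minus strand (chr1:11214676-11216141).

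PSAN (AT5G64040) encodes a small subunit that is wholly in the lumen and also takes part in the contact with plastocyanin. Its level was 709 CPM in -Fe, 1918 CPM in Fe resupply and 1724 CPM in +Fe. The -Fe level was 2.43-fold lower than in +Fe (log2 ratio -1.28, counting interval -1.33 to -1.23) and 2.71-fold lower than in Fe resupply (-1.44). Fe resupply stood at 0.15 over +Fe. The gene lies on the minus strand of chromosome 5 (chr5:25628521-25629708) and has 3 exons in its transcript 1, which held all of its level.

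The 250 bases before the annotated gene start are shown for these 3 genes and for FD1, the paralog of FD2, which was not lower in -Fe. The set was chosen after the values were seen. The sequences are from RefSeq TAIR10.1 and run 5′ to 3′ on the strand of the gene, ending at the base before the start. Capitals mark the I-box letters GATAAG on either strand. The FD2 window is chr1:22444057-22444306 (plus), that of FD1 chr1:3663937-3664186 (plus), that of PSAF chr1:11216142-11216391 (minus) and that of PSAN chr5:25629709-25629958 (minus).
FD2: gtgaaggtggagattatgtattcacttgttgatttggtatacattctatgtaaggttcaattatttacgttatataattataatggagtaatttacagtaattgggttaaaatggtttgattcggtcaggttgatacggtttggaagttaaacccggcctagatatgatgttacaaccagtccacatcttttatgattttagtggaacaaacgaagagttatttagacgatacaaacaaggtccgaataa
FD1: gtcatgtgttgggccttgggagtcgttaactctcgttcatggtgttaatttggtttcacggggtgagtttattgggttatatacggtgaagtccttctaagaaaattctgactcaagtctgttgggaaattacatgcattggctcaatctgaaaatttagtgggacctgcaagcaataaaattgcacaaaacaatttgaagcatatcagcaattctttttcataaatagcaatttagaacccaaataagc
PSAF: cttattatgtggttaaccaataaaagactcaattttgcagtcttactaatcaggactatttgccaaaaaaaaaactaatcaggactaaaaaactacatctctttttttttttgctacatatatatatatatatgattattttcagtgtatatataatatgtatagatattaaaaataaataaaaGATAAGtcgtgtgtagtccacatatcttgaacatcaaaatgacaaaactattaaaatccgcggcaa
PSAN: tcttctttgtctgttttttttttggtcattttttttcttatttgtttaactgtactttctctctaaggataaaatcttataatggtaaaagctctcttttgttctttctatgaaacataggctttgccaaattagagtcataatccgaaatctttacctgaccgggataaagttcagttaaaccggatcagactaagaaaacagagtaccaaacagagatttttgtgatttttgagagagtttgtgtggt
Of the 4 windows, only that of PSAF held the I-box, whose first base lies 66 bases before the gene start, and none held the G-box CACGTG. FD2, FD1 and PSAF held CCAAT, and none of the 4 held TATAAA. Both strands were searched, the motifs were counted separately and matches may share bases.

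Among all 31 genes, 10 held the I-box (32.3%) against 12.3% of the 27443 protein-coding genes with such a window. Those 10 were PSAD1, PSAF, PSAH2, PSAK, LHCA1, PETE2, FDC1, FNR1, PETC and PGRL1B. The G-box was found in 4 of 31 (12.9%), namely PSAE2, PSAH2, LHCA4 and FDC2, against 6.49% of all windows. CCAAT was found in 19 (61.3%) against 46.0%, and TATAAA in 15 (48.4%) against 47.3%. These are matches of letters in a fixed window and not sites of binding.

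**Figure D2:**
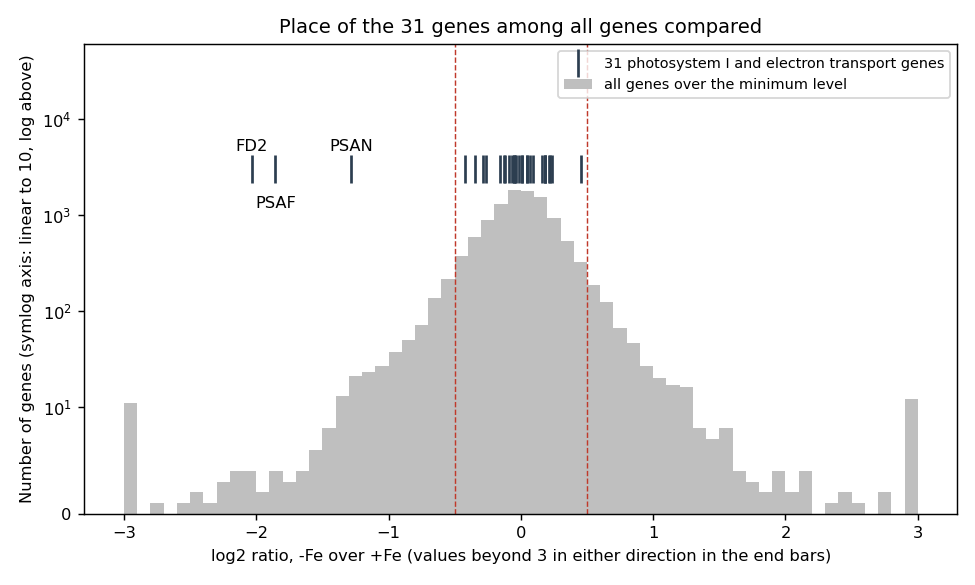
Distribution of the log2 ratio of -Fe over +Fe for the 11267 compared genes (grey bars, number of genes on a symlog axis) with the 31 genes as ticks; dashed lines mark 0.5 in either direction. FD2 at -2.03, PSAF at -1.86 and PSAN at -1.28 lie in the lower tail, and the other 28 lie between the dashed lines.

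Of the 10 remaining photosystem I subunit genes, only PSAD2 was called in any comparison. Of all compared genes, 2.72% to 6.3% were called in each direction of a comparison. PSAD and PSAE cover the stromal face, where ferredoxin docks, and each has 2 genes. PSAD1 (AT4G02770) had 5001 CPM in -Fe, 5614 CPM in Fe resupply and 4396 CPM in +Fe, so that it stood at 0.19 in -Fe and at 0.35 in Fe resupply over +Fe. PSAD2 (AT1G03130) had 1461 CPM in -Fe, 2073 CPM in Fe resupply and 1953 CPM in +Fe. Its log2 ratio was -0.42 in -Fe over +Fe (counting interval -0.46 to -0.38) and -0.51 in -Fe over Fe resupply, where the counting half-width of 0.04 reaches across the limit of 0.5. The 2 PSAD genes thus lay on opposite sides of 0 in -Fe over +Fe, and their sum was alike in -Fe and +Fe (6461 CPM in -Fe, 7688 CPM in Fe resupply and 6349 CPM in +Fe).

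PSAE1 (AT4G28750) had 2191 CPM in -Fe, 2556 CPM in Fe resupply and 2383 CPM in +Fe, a ratio of -0.12 in -Fe over +Fe. PSAE2 (AT2G20260) had 534 CPM in -Fe, 613 CPM in Fe resupply and 539 CPM in +Fe, a ratio of -0.01 whose counting interval includes 0. Neither PSAE gene was called in any comparison.

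The membrane subunits bind the antenna or the mobile light-harvesting complex of photosystem II. PSAG (AT1G55670) and PSAK (AT1G30380), which flank the core and contact the antenna, stood at -0.05 and -0.12 in -Fe over +Fe. PSAG had 2199 CPM in -Fe, 2556 CPM in Fe resupply and 2284 CPM in +Fe. PSAK had 2383 CPM in -Fe, 2884 CPM in Fe resupply and 2598 CPM in +Fe. Both were thus highest in Fe resupply.

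PSAH, PSAL and PSAO form the side on which the mobile antenna docks in state transitions. PSAH1 (AT3G16140) had 836 CPM in -Fe, 911 CPM in Fe resupply and 799 CPM in +Fe. PSAH2 (AT1G52230) had 858 CPM in -Fe, 922 CPM in Fe resupply and 886 CPM in +Fe. Their ratios in -Fe over +Fe were 0.07 and -0.05. PSAL (AT4G12800) stood at 0.05 and PSAO (AT1G08380) at -0.09 in the same comparison. The levels of PSAL were 2777 CPM in -Fe, 3133 CPM in Fe resupply and 2689 CPM in +Fe, and those of PSAO 4276 CPM in -Fe, 4844 CPM in Fe resupply and 4551 CPM in +Fe. All 12 subunit genes lay below 0 in -Fe over Fe resupply, with a median of -0.21, and 3 of them (PSAD2, PSAF and PSAN) were called, where 6.3% of all compared genes were. Most abundant genes lay on that side too, since 140 of the 199 genes with a mean of at least 500 CPM were below 0 (median -0.12), as were 22 of the 25 photosystem II and LHCB genes (median -0.19). Of those 199 genes, 23 were called lower.

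**Figure D3:**
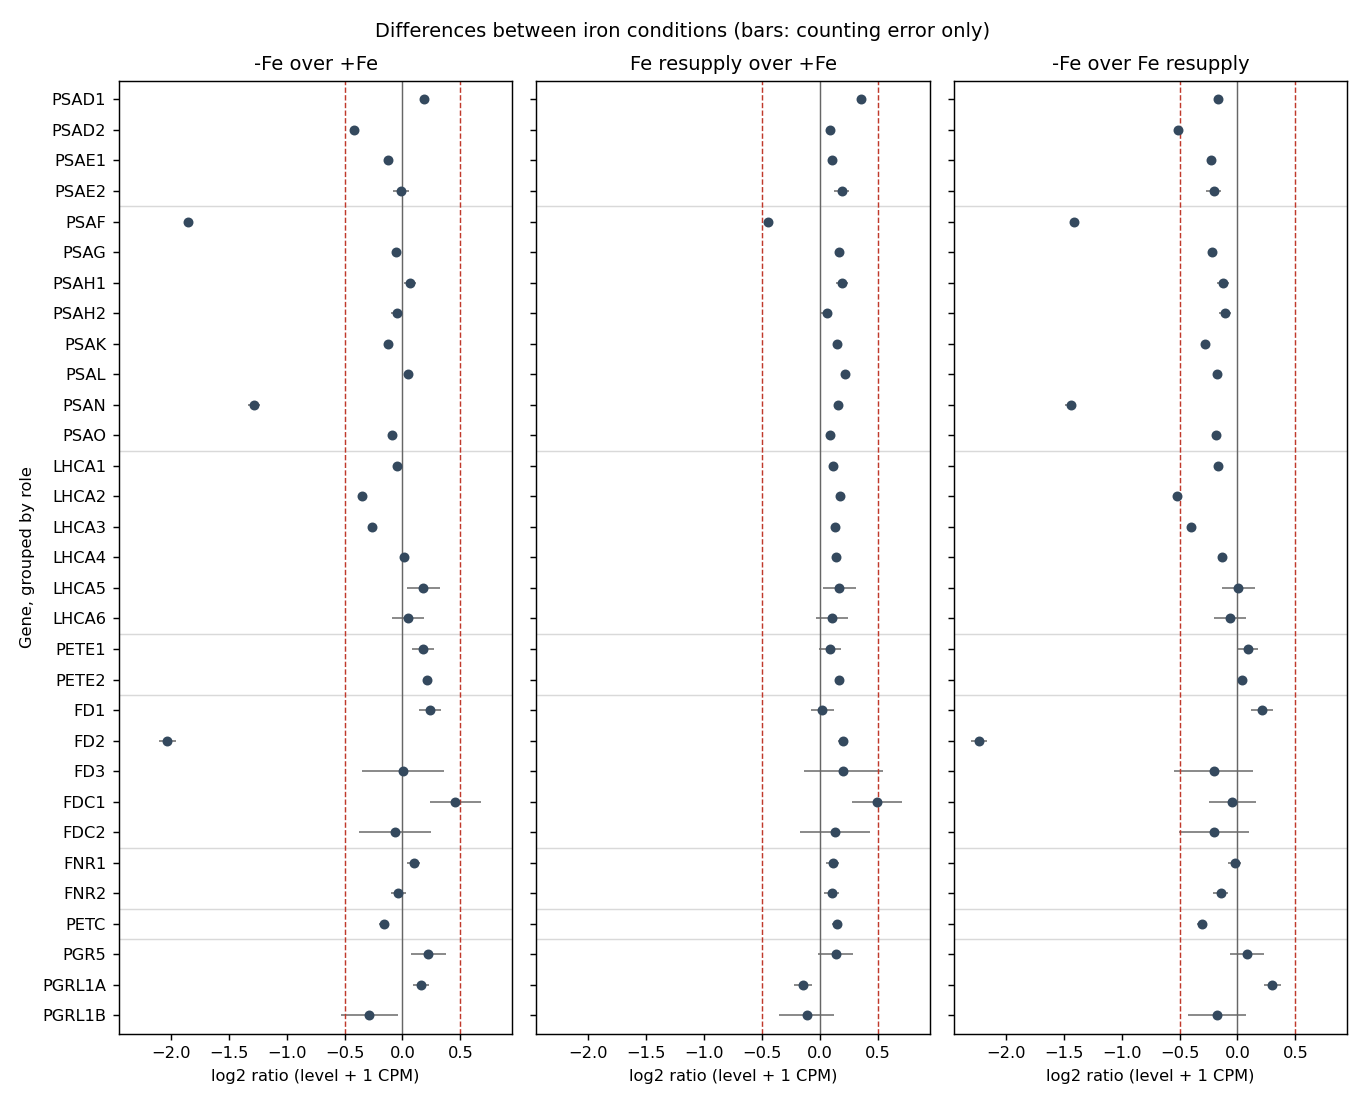
Log2 ratio of each gene in -Fe over +Fe, Fe resupply over +Fe and -Fe over Fe resupply, with bars for the 95% counting interval only and dashed lines at 0.5 in either direction. FD2, PSAF and PSAN stand apart in both comparisons with -Fe, while in Fe resupply over +Fe all 31 genes lie within the dashed lines, PSAF lowest at -0.45 and FDC1 highest at 0.49.

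The antenna genes LHCA1 to LHCA4 encode the chlorophyll-binding belt of photosystem I. LHCA1 (AT3G54890) and LHCA4 (AT3G47470), which pair with each other in the belt, stood at -0.05 and 0.01 in -Fe over +Fe. LHCA1 had 7661 CPM in -Fe, 8552 CPM in Fe resupply and 7923 CPM in +Fe. LHCA4 had 7871 CPM in -Fe, 8611 CPM in Fe resupply and 7805 CPM in +Fe. Their levels were thus close in the 3 conditions.

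LHCA2 (AT3G61470) and LHCA3 (AT1G61520) form the other pair, and both were lowest in -Fe. LHCA2 had 3338 CPM in -Fe, 4776 CPM in Fe resupply and 4242 CPM in +Fe, with a ratio of -0.35 in -Fe over +Fe and -0.52 in -Fe over Fe resupply. LHCA3 had 4132 CPM in -Fe, 5431 CPM in Fe resupply and 4954 CPM in +Fe, with ratios of -0.26 and -0.40 in the same comparisons. Only LHCA2 passed 0.5, and only against Fe resupply, where it was just inside and 6.3% of all compared genes were lower. LHCA5 (AT1G45474) and LHCA6 (AT1G19150), which join photosystem I to the NDH complex, were not called. LHCA5 had 122 CPM in -Fe, 121 CPM in Fe resupply and 107 CPM in +Fe, and LHCA6 had 122 CPM in -Fe, 127 CPM in Fe resupply and 118 CPM in +Fe. Their ratios of 0.18 and 0.05 in -Fe over +Fe had counting half-widths of 0.14 each.

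Plastocyanin, the copper protein that feeds photosystem I, is encoded by PETE1 (AT1G76100) and PETE2 (AT1G20340). PETE1 had 280 CPM in -Fe, 263 CPM in Fe resupply and 248 CPM in +Fe. PETE2 had 2662 CPM in -Fe, 2578 CPM in Fe resupply and 2298 CPM in +Fe. Both were highest in -Fe, at 0.18 and 0.21 over +Fe, which is under the limit for a call. Neither plastocyanin gene was thus lower in -Fe, unlike PSAF and PSAN, whose proteins contact the carrier.

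The 5 ferredoxin genes differed among themselves. FD1 (AT1G10960), the minor leaf ferredoxin, had 268 CPM in -Fe, 231 CPM in Fe resupply and 228 CPM in +Fe, a ratio of 0.24 in -Fe over +Fe (counting interval 0.14 to 0.34). FD2 held 51.1% of the summed CPM of FD1 and FD2 in -Fe, against 85.1% in Fe resupply and 83.5% in +Fe. Their coding sequences have 447 bases each and are 80.1% identical, with a longest shared run of 23 bases. Their summed level was 549 CPM in -Fe, 1551 CPM in Fe resupply and 1380 CPM in +Fe, so the sum was lowest in -Fe too.

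FD3 (AT2G27510), the ferredoxin that prevails in roots, had 19.0 CPM in -Fe, 21.9 CPM in Fe resupply and 18.9 CPM in +Fe, a ratio of 0.01 in -Fe over +Fe with a counting half-width of 0.35. FDC1 (AT4G14890) and FDC2 (AT1G32550) encode ferredoxins with an extended C terminus. FDC1 had the highest ratio of the 31 genes in -Fe over +Fe, at 0.45 (counting interval 0.23 to 0.67), with 58.1 CPM in -Fe, 59.6 CPM in Fe resupply and 42.1 CPM in +Fe. It stood at 0.49 in Fe resupply over +Fe, just short of a call. FDC2 had 23.8 CPM in -Fe, 27.4 CPM in Fe resupply and 25.01 CPM in +Fe.

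The leaf ferredoxin-NADP reductases FNR1 (AT5G66190) and FNR2 (AT1G20020) stood at 0.10 and -0.04 in -Fe over +Fe. FNR1 had 748 CPM in -Fe, 757 CPM in Fe resupply and 700.4 CPM in +Fe. FNR2 had 543 CPM in -Fe, 599 CPM in Fe resupply and 558 CPM in +Fe. PETC (AT4G03280), the nuclear gene of the Rieske iron-sulfur protein, had 1188 CPM in -Fe, 1468 CPM in Fe resupply and 1324 CPM in +Fe. Its ratio was -0.16 in -Fe over +Fe (counting interval -0.20 to -0.11) and -0.31 in -Fe over Fe resupply. The 5 ferredoxins and PETC are the genes here whose proteins bind an iron-sulfur cluster. Of them, only FD2 was called in any of the 3 comparisons. In each direction of a comparison, between 2.72% and 6.3% of all compared genes were called. FDC1 was just short of a call in Fe resupply over +Fe, at 0.49 (counting interval 0.27 to 0.71).

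PGR5 and PGRL1 serve cyclic electron flow, in which ferredoxin returns electrons to the plastoquinone pool. PGR5 (AT2G05620) had 114 CPM in -Fe, 107 CPM in Fe resupply and 97.4 CPM in +Fe, a ratio of 0.22 in -Fe over +Fe (counting interval 0.07 to 0.37). PGRL1A (AT4G22890) had 477 CPM in -Fe, 385 CPM in Fe resupply and 427 CPM in +Fe, and it was the only one of the 31 genes that was lowest in Fe resupply. PGRL1B (AT4G11960) had 35.2 CPM in -Fe, 39.8 CPM in Fe resupply and 43.2 CPM in +Fe. PGRL1A stood at 0.16 and PGRL1B at -0.29 in -Fe over +Fe, so the share of PGRL1B in their sum was 6.88% in -Fe, 9.37% in Fe resupply and 9.20% in +Fe. The counting interval of PGRL1B was -0.53 to -0.04 in -Fe over +Fe and included 0 in both comparisons with Fe resupply.

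Among 8 pairs of related genes, the share of 1 member moved most for FD2. PSAD2 held 22.6% of the PSAD sum in -Fe, 26.97% in Fe resupply and 30.8% in +Fe. The shares of PSAE2, PSAH2, PETE2, FNR2 and LHCA6 in their pairs each differed by less than 3 percentage points over the 3 conditions. The coding sequences of the pairs were 52.3% (LHCA5 and LHCA6) to 87.0% (PSAH1 and PSAH2) identical, and the longest run without a mismatch was 38 bases (PGRL1A and PGRL1B). How the counting placed reads that fit both genes of a pair is not given in the sources used here.

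**Figure D4:**
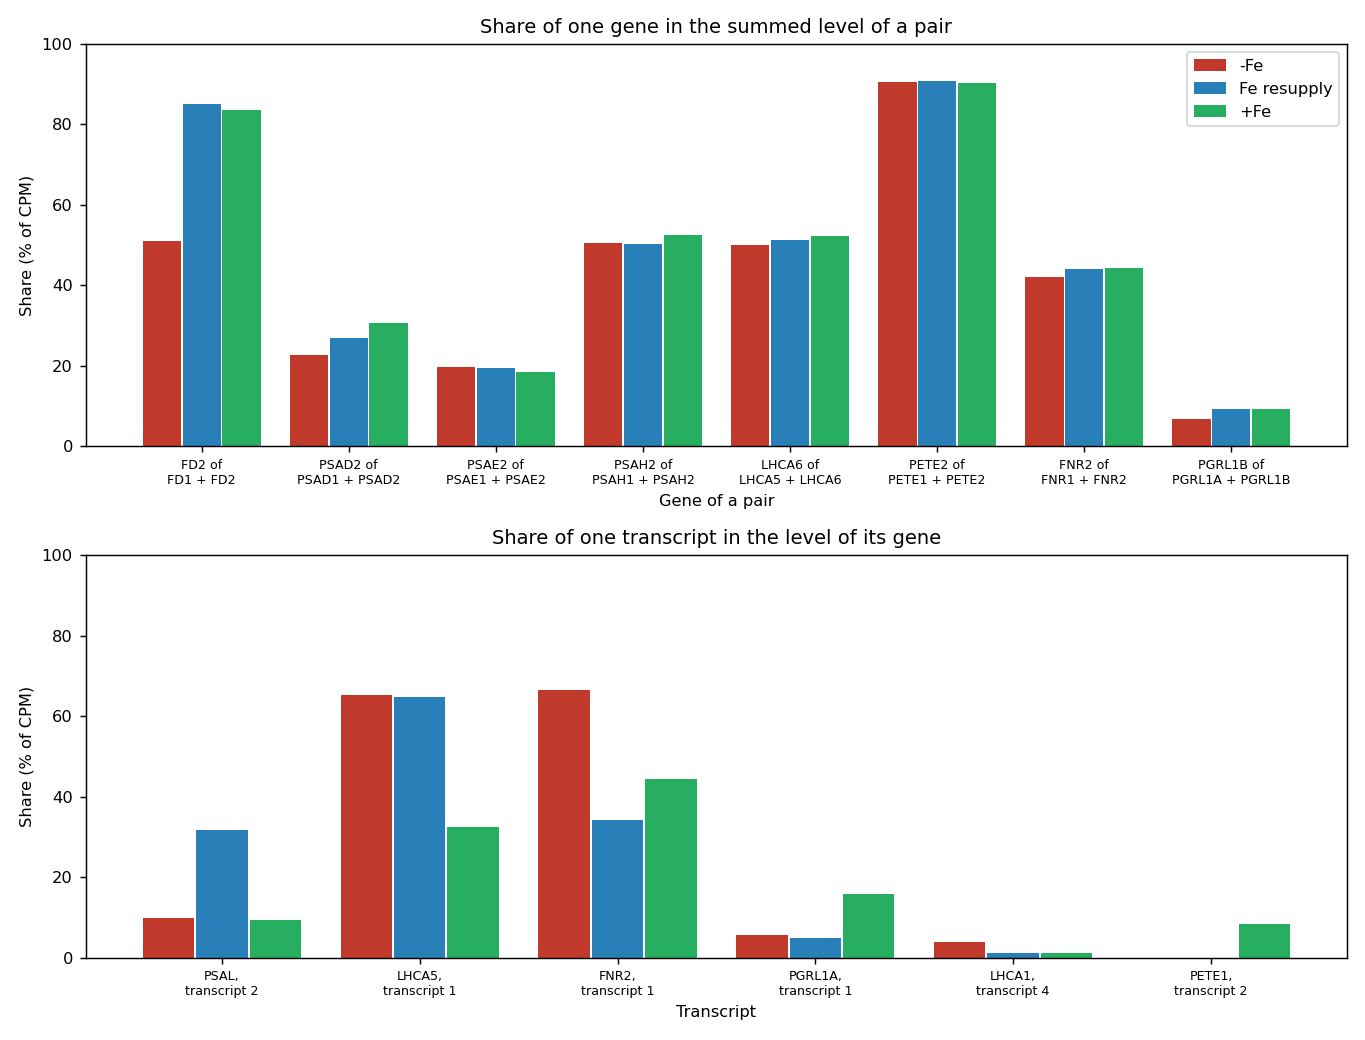
Share of 1 gene in the summed CPM of a pair (top) and of 1 transcript in the CPM of its gene (bottom) in -Fe, Fe resupply and +Fe shoots. The share of FD2 is 51.1% in -Fe, against 85.1% in Fe resupply and 83.5% in +Fe, and that of PSAL transcript 2 is 31.7% in Fe resupply, against 9.81% in -Fe and 9.36% in +Fe.

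Of the 31 genes, 13 have 2 or more annotated transcripts, and in some of them the share of a transcript changed where the gene sum did not. These transcripts were chosen after the values were seen, and overlapping transcripts share most of their reads, so the split is uncertain. PSAL transcript 2 (AT4G12800.2) had 272 CPM in -Fe, 991 CPM in Fe resupply and 252 CPM in +Fe, a log2 ratio of 1.97 in Fe resupply over +Fe, while transcript 1 had 2500.2 CPM in -Fe, 2135 CPM in Fe resupply and 2437 CPM in +Fe. LHCA5 transcript 1 (AT1G45474.1) had 79.3 CPM in -Fe, 78.1 CPM in Fe resupply and 34.9 CPM in +Fe, and its transcript 2 had 42.4 CPM in -Fe, 42.3 CPM in Fe resupply and 72.5 CPM in +Fe. The split of LHCA5 in Fe resupply was thus that of -Fe.

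FNR2 transcript 1 (AT1G20020.1) held 66.4% of the gene in -Fe, 34.3% in Fe resupply and 44.5% in +Fe. LHCA1 transcript 4 (AT3G54890.4) had 297 CPM in -Fe, 105 CPM in Fe resupply and 99.03 CPM in +Fe, a small part of the gene in each. PETE1 transcript 2 (AT1G76100.2) had 20.6 CPM in +Fe and was under the 0.442 CPM that 3 counts give in both -Fe and Fe resupply. For FD2 and PSAF, which have 1 transcript each, and for PSAN no such split enters the values.

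The other genes of the photosynthetic chain are given by list, with no test between lists. Of 25 photosystem II and LHCB genes, 0 were higher and 0 lower in -Fe over +Fe, with a median of -0.09. Of all compared genes, 5.01% were higher and 5.74% lower there. In Fe resupply over +Fe, 1 of the 25 was higher (LHCB1.5, at 0.90), where 2.72% of all compared genes were. In -Fe over Fe resupply 3 were lower (PSBQ2 at -0.51, LHCB1.4 at -0.68 and LHCB1.5 at -0.63), where 6.3% of all compared genes were. The LHCB1 genes are near-identical copies, so their split is uncertain. Of 6 factors that assemble photosystem I, 0 were called in any comparison, and their median was -0.04 in -Fe over +Fe. The same held for the 3 compared nuclear genes of the ATP synthase and the 4 of the NDH complex, with medians of 0.04 and -0.02.

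The plastid-encoded partners could hardly be compared, because only 1 of 11 photosystem I and cytochrome b6f genes of the plastid reached 10 CPM. That gene was psaJ, next to PSAF in the complex, with 18.8 CPM in -Fe, 28.7 CPM in Fe resupply and 29.1 CPM in +Fe. Its ratio was -0.60 in -Fe over +Fe, with a counting interval of -0.92 to -0.28 that reaches across the limit of 0.5. The core genes psaA (2.63 CPM in -Fe, 4.69 CPM in Fe resupply and 3.42 CPM in +Fe) and psaB (3.95 CPM in -Fe, 3.51 CPM in Fe resupply and 4.24 CPM in +Fe) were below 10 CPM. On few counts, the plastid genes under 10 CPM ran from -1.13 (petB) to 0.17 (petL) in -Fe over +Fe. Of the root-type ferredoxin chain, RFNR1 had 20.4 CPM in -Fe, 12.5 CPM in Fe resupply and 14.8 CPM in +Fe. It was higher in -Fe than in Fe resupply, at 0.66, where 5.5% of all compared genes were higher. Its counting interval of 0.27 to 1.05 reaches across the limit of 0.5. RFNR2 stood at -0.07 in the same comparison, and FD4 had 0 CPM in each condition.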

How the data were processed

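RNA-seq was done on 9 wild-type Col-0 shoot samples, 3 in each condition, grouped by their labels. Per the study's methods, the authors used Trimmomatic 0.36.5 to trim the paired-end reads, mapped them to TAIR10 with HISAT2 2.1.0, quantified transcripts with StringTie 1.3.3.2 and compared conditions with edgeR 3.20.7.2. The input and normalization of that last step are not given in the sources used here. The 3 deposited tables, 1 for each pair of conditions, hold the mean log2 CPM over the libraries of both conditions, which is the authors' pooled value. Their other columns hold the authors' fold changes, F statistics and p-values and were not used.

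The lowest value of each table was subtracted on the linear scale. The 3 tables, normalized separately, were calibrated on 5245 transcripts present in 1 condition only, whose log2 ratios between tables lay between -0.005 and 0.048. The level of each condition was then solved from the 3 pairwise means, which takes both conditions of a pair to weigh equally. Negative results were set to 0. Levels were summed per locus, 1 CPM was added before log2, and ratios were centred on the median of genes with a mean of at least 10 CPM, which moved them by at most 0.030. With 1 value per condition, no test was made. The solving was run on simulated data with known levels, where the median error of the log2 ratio of -Fe over +Fe was 0.006. The simulation had more libraries in a condition than the labels give samples. It checks the solving only, not the authors' normalization or the spread between replicates. Python 3.11.15, numpy 2.4.6, pandas 2.3.3, scipy 1.17.1 and matplotlib 3.10.9 were used.

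Genes and lists were chosen with earlier results of these data known. All 31 genes are named. The 2 highest and 2 lowest in -Fe over +Fe, the paralog pairs, PETC and PGR5 were to be given in full, and other choices are said to be made after the values were seen. Upstream sequences and positions are from RefSeq TAIR10.1; the deposited tables hold no coordinates.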

Additional observations from a re-analysis of the deposited data

How the results depend on the processing

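No paired analysis was possible because the deposited tables hold no value per sample. For the same reason leaving out each replicate could not be run. The main limits are that the weight of a single library in a pooled value is unknown and that 1 value per condition gives no replicate error.

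In -Fe over +Fe, FD2, PSAF and PSAN were lower by at least 1 on the log2 scale, so a limit of 1 left that count at 3, where 1.22% of all compared genes were as low. The count of lower genes in -Fe over Fe resupply was 5, and PSAD2 and LHCA2 lie just inside 0.5. It was 3 without centring (5.55% of all compared genes) and 3 at a limit of 1 (1.16%). With no minimum level it was 4, where 11.4% of the 23094 genes then compared were lower and PSAD2 was at -0.49. At a limit of 0.25, 1 gene was higher and 7 lower in -Fe over +Fe, where 16.1% of all compared genes were higher and 17.8% lower. At that limit 2 were higher and 1 lower in Fe resupply over +Fe (13.2% and 14.5% of all compared genes), and 1 higher and 8 lower in -Fe over Fe resupply (17.7% and 18.9%). With no pseudocount, 1 gene (FDC1) was higher in Fe resupply over +Fe, where 3.205% of all compared genes were. Counted as 42 transcripts over 10 CPM in place of genes, 5 were higher and 8 lower in -Fe over +Fe, where 10.2% and 10.9% of all transcripts were. The same count gave 4 higher and 2 lower in Fe resupply over +Fe (8.75% and 9.42% of all transcripts), and 3 higher and 9 lower in -Fe over Fe resupply (10.4% and 11.99%).

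The medians moved by less than 0.05 under every alternative run. Of 651 ratios of single genes under 7 alternatives, 630 moved by less than their counting error, 21 by more, no called ratio changed sign, and the largest shift was 0.06, without the calibration between tables. Calibrating on transcripts over 3 CPM, an alternative chosen after seeing the data, moved no gene by more than 0.01.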
